A study of Caenorhabditis elegans with 2 samples.

Results

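Superoxide dismutases and catalases are the enzymes that remove superoxide and the hydrogen peroxide formed from it. The genes described here are the 5 superoxide dismutase genes and 3 catalase genes of Caenorhabditis elegans. They were taken by name, and all 8 were found among the 21163 gene rows of the deposited table. RNA was sequenced from whole worms of the wild-type strain N2, collected at day 5; from when the days are counted is not stated in the labels. The control worms received the vehicle, dimethyl sulfoxide, in which the compound of the other group was dissolved. The EA worms received ellagic acid (EA), a polyphenol of plants, at 100 µM in their bacterial food, Escherichia coli OP50. That dose is as labelled, and the dilutions that the labels give for its stock and working solutions do not match. Each group held 1 library, with 41840364 counts in the control and 39421614 in EA, so no difference below has a replicate check, no test was run, and all intervals are 95% intervals that cover counting error only. In RNA from whole animals, fewer cells of a type and less RNA per cell cannot be told apart. All 19 marker genes checked for 7 cell types (intestine, body wall muscle, pharynx muscle, neurons, hypodermis, germline and sperm) had counts in both libraries.

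Superoxide is formed mainly by the respiratory chain and by oxidases. A dismutase turns it into hydrogen peroxide and oxygen, and catalase, a haem enzyme, splits hydrogen peroxide into water and oxygen. In C. elegans, SOD-1 is the main cytosolic copper/zinc enzyme, SOD-5 a minor one, and SOD-4 an extracellular or membrane-bound one. SOD-2 is the main manganese enzyme of mitochondria and SOD-3 the minor one. The gene sod-3 is activated by the forkhead factor DAF-16 when insulin/IGF-1 signalling is low and is widely used as a readout of that pathway, which the series title names. CTL-2 is the peroxisomal catalase and CTL-1 a cytosolic one.

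The deposited domain annotation bore out the family names. It gave a copper/zinc superoxide dismutase domain to sod-1, sod-4 and sod-5, an iron/manganese domain to sod-2 and sod-3, and a catalase domain to ctl-1, ctl-2 and ctl-3. The catalase genes stand in a row on the minus strand of chromosome II in build WBcel235. From low to high coordinates they are ctl-2 (14299556 to 14302027), ctl-1 (14303568 to 14306260) and ctl-3 (14307798 to 14310779). Gaps of 1540 and 1537 bases separate them, with no annotated gene between. The best Swiss-Prot match that the authors' deposited table lists for ctl-3 is the protein of ctl-1. The catalase genes are related copies, and the sources used here do not say how reads matching several genes were counted, so their single values are uncertain while their sum is not affected by a split among them.

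The superoxide dismutase genes are scattered. On chromosome II lie sod-1 (6972706 to 6973887, minus strand) and sod-5 (4417633 to 4419130, plus strand). The gene sod-2 is on chromosome I (8434550 to 8435807, plus strand), sod-3 on chromosome X (17092753 to 17094306, plus strand) and sod-4 on chromosome III (9496884 to 9500375, minus strand). Their longest annotated transcripts have 706 to 1031 nucleotides, against 1554 to 1631 for the catalases. For sod-4 the annotation holds 4 transcripts.

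With EA the catalase transcripts were higher by about the same factor in all 3 genes, sod-4 was lower, and sod-1 hardly differed. None of the 7 members with a mean of 5 CPM or more (counts scaled to the effective library size) differed by 2-fold. By length-scaled level (FPKM, a level scaled to transcript length and to sequencing depth, as the authors deposited it), sod-1 was the most abundant member in both libraries, at 193 FPKM in the control and 194 FPKM in EA. It stood at place 522 of all gene rows in the control and 511 in EA. Next in the control came sod-2 at 110 FPKM (110.02) and sod-4 at 103.9 FPKM, whose counting intervals overlapped. They were followed by ctl-2 at 85.3, ctl-1 at 59.4 and ctl-3 at 48.3 FPKM. In EA the order after sod-1 was ctl-2 at 112, sod-2 at 98.8, ctl-1 at 79.4, sod-4 at 72.3 and ctl-3 at 66.2 FPKM, with no overlap of intervals between neighbours. So ctl-2 went from place 4 to place 2 and sod-4 from place 3 to place 5. When counts were instead divided by the longest transcript, sod-4 and ctl-2 changed places in the control order and sod-4 and ctl-3 in the EA order.

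**Figure D1:**
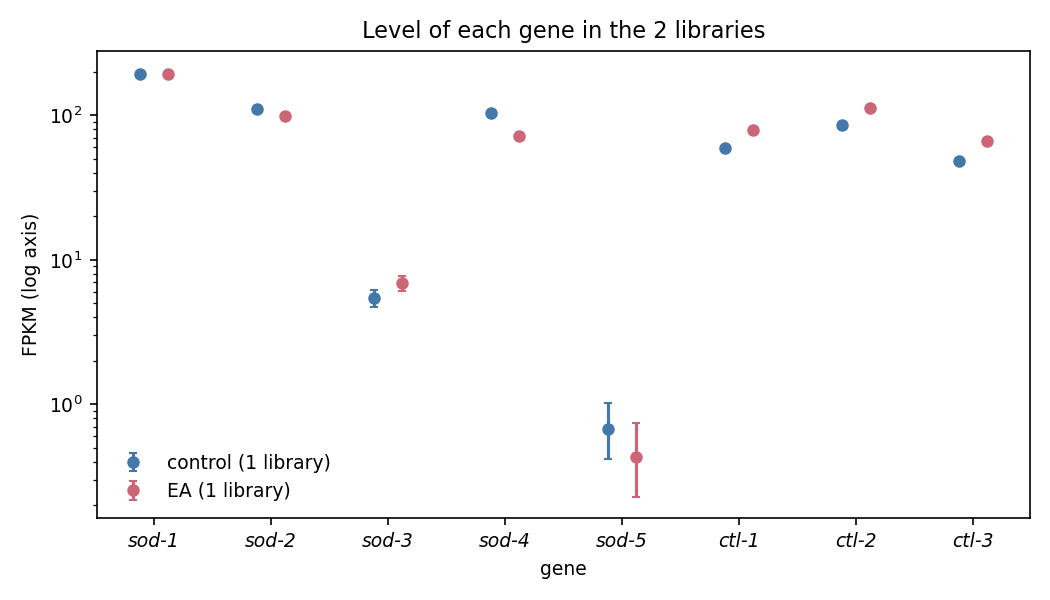
FPKM of each of the 8 genes (log axis) in the control library and the EA library; points are the deposited values and bars the exact Poisson 95% intervals of the counts behind them. The 3 catalases lie higher in EA, sod-4 lies lower, and sod-3 and sod-5 lie far below the other 6 genes in both libraries.

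The low end of the order was the same in both libraries. The gene sod-3 had 5.44 FPKM in the control and 6.88 FPKM in EA, 8.89-fold and 9.63-fold below ctl-3, the member next above it. The gene sod-5 had 0.672 and 0.433 FPKM. Among all gene rows sod-3 ranked near the middle, at place 9879 and 9220, and sod-5 at place 14921 and 15894.

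For sod-1, which encodes the main cytosolic dismutase, the control library held 5461 counts and the EA library 5192. These correspond to 132 and 130 CPM (130.1). The log2 ratio of EA to control was -0.02 (-0.08 to 0.03), an interval that includes no difference and, with sod-1 being well counted, is narrow. That interval covers counting error only. Once the trend of the ratio with transcript length over all genes was removed, the log2 ratio was 0.11, outside it. An annotated antisense RNA, C15F1.13, covers 11.8% of its exonic bases and was not analysed here.

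The extracellular dismutase gene sod-4 had 3598 counts in the control and 2325 in EA. That is 87.0 and 58.3 CPM, 1.49-fold lower with EA (1.42 to 1.57), at a log2 ratio of -0.58. Of the well-counted members it was the one with the lowest ratio. In the authors' deposited table it had a log2 ratio of -0.58. It was not called there, since their call needs a false discovery rate of 0.01 and 2-fold. With 1 library per group that rate rests on no measured spread, and it is not given here. Exons of sod-4 share 175 bases, 13.4% of its exonic bases, with ctr-9 on the opposite strand. Whether counting used strand is not given, and ctr-9 itself had a log2 ratio of 0.08 (0.03 to 0.13).

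The third copper/zinc gene, sod-5, had 22 counts in the control and 13 in EA. Its interval runs from a log2 ratio of -1.82 to 0.34, so a difference was not detectable at this depth. With a mean of 0.429 CPM it was the only member under the minimum of 5 CPM used for calls. The 3 copper/zinc genes together had 9081 and 7530 counts, a ratio of 0.859 (0.833 to 0.886). Within that sum the share of sod-4 was 39.6% in the control (exact binomial interval 38.6% to 40.6%) and 30.9% in EA (29.8% to 31.9%).

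Among the mitochondrial manganese enzymes, sod-2 had 3914 counts in the control and 3239 in EA, or 94.7 and 81.2 CPM. It was 1.17-fold lower (1.11 to 1.22), at a log2 ratio of -0.22, which was -0.13 once the trend of the ratio with transcript length over all genes was removed (the length trend). The gene lies within the span of dpt-1 on the opposite strand and shares 21 exonic bases with it, and dpt-1 had a log2 ratio of 0.17 (0.12 to 0.23), the other direction.

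The DAF-16 target sod-3 had 213 counts in the control and 248 in EA, or 5.15 and 6.21 CPM. The ratio was 1.21, and the lower end of its interval, a ratio of 1.0002, lay at no difference (upper end 1.46). Thus the manganese gene that is the smaller in level had the higher ratio. Of the counts of the pair, sod-3 held 5.16% in the control (4.51% to 5.88%) and 7.11% in EA (6.28% to 8.02%). The sum of the pair was set by sod-2 and had a ratio of 0.875 (0.836 to 0.916). On the opposite strand, C08A9.3 shares 65 exonic bases with sod-3 and had 9 and 0 counts, and lido-1 shares 24 bases and had 401 counts in the control and 541 in EA, at a log2 ratio of 0.48. What these overlaps add to the sod-3 counts was not tested.

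The catalase genes had nearly the same ratio. The peroxisomal catalase gene ctl-2 had 6097 counts in the control and 7361 in EA, a ratio of 1.251 (1.21 to 1.29). The cytosolic catalase gene ctl-1 had 4098 and 5045 counts, a ratio of 1.28 (1.22 to 1.33). The third gene of the row, ctl-3, had 3401 and 4278 counts and a ratio of 1.303 (1.245 to 1.36). The 3 intervals overlap one another, so the genes could not be told apart in their ratio. How reads matching several of these copies were counted is not known, and its part in the likeness of their ratios was not tested. Summed, they had 13596 counts in the control and 16684 in EA, a ratio of 1.27 (1.243 to 1.3003). Their shares of that sum were close in the 2 libraries, with 44.8% and 44.1% for ctl-2, 30.1% and 30.2% for ctl-1, and 25.0% and 25.6% for ctl-3, and the intervals of each gene's share in the control and in EA overlapped.

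**Figure D2:**
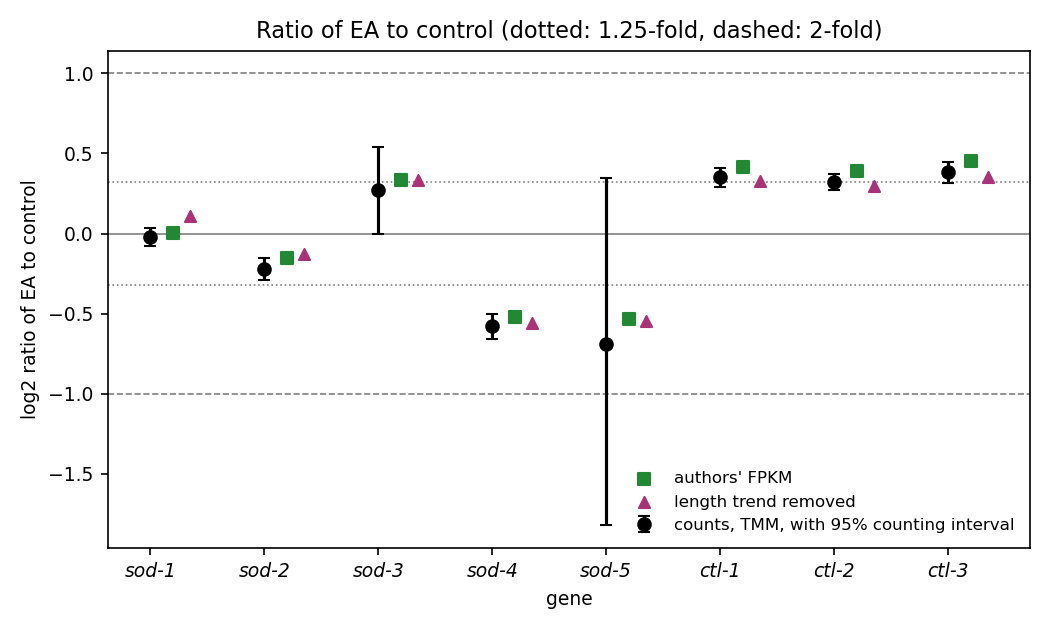
Log2 ratio of EA to control for each of the 8 genes; black points are from counts with TMM scaling and bars their 95% counting intervals, green squares are from the authors' FPKM, and purple triangles have the transcript length trend removed. The 3 catalases lie between 0.32 and 0.38 by counts, sod-4 lies at -0.58, and the bar of sod-5 spans from -1.82 to 0.34.

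The nearest genes beside the row went both ways. On the ctl-2 side, Y54G11A.7, which overlaps the end of ctl-2 by 65 bases on the opposite strand, had 1290 counts in the control and 1050 in EA, at a log2 ratio of -0.25. The next gene, Y54G11A.4, had 3005 counts in the control and 1768 in EA, at a log2 ratio of -0.71 (-0.80 to -0.63). On the ctl-3 side, Y54G11A.14 had 97 counts in the control and 130 in EA, at a log2 ratio of 0.47 with a wide interval (0.08 to 0.87) that holds the values of the catalases. The RNA gene between them, Y54G11A.20, was not analysed here.

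Against all genes these differences were moderate. A limit of 2-fold with an interval excluding 1 was passed upward by 0.481% and downward by 1.52% of the 10610 genes with a mean of 5 CPM or more, and by 0 of the 7 members above that minimum. A lower limit, 25% higher or 20% lower, which is the same factor in either direction, was passed upward by 9.83% and downward by 15.6% of these genes. The 3 catalases passed it upward and sod-4 downward. The gene ctl-2 stood at the limit itself, 25.1% higher, and with upper quartile scaling it was under it. With the length trend removed, sod-3 passed the limit in place of ctl-2, and with FPKM it passed beside the 3 catalases. Over all genes at 5 CPM or more, 1548 passed it upward with FPKM, against 1043 with TMM scaling of counts.

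**Figure D3:**
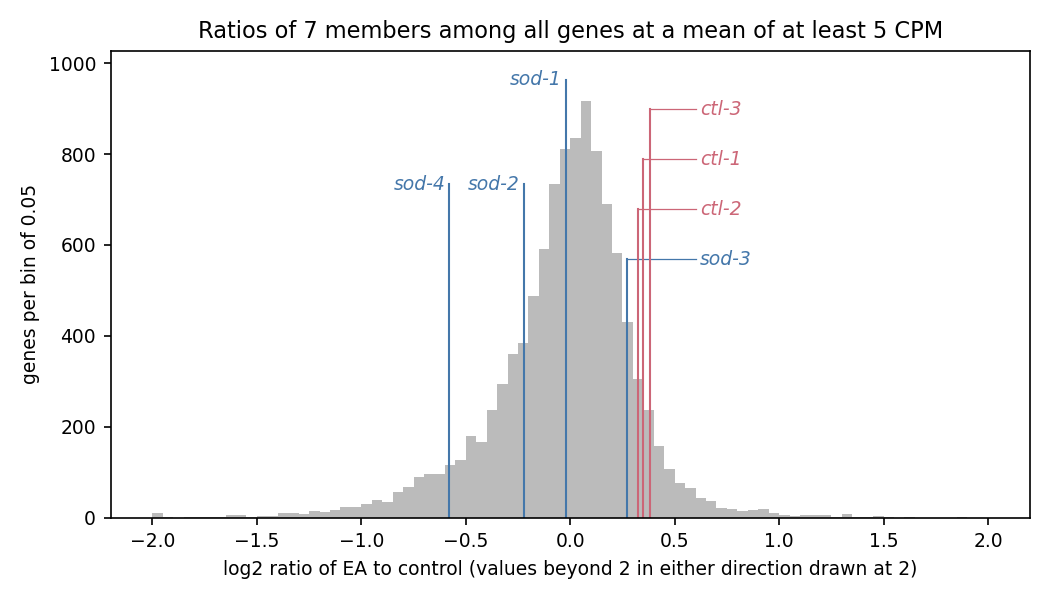
Histogram of the log2 ratio of EA to control over the 10610 genes with a mean of 5 CPM or more (bins of 0.05), with lines at the values of the 7 members above that minimum. The 3 catalases lie on the right flank, sod-4 on the left flank, and sod-1 near the peak.

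Since short transcripts had lower ratios in these libraries, the members were also set beside genes of like length. The 2384 genes with a longest transcript of 600 to 1100 nucleotides had a median of -0.07 on the log2 scale, and 90% of them lay from -0.75 to 0.40. The values of sod-1, sod-2, sod-3 and sod-4 lay inside that range, sod-4 with 8.98% of those genes below it. The 1839 genes of 1400 to 1800 nucleotides had a median of 0.04, and 90% of them lay from -0.54 to 0.44. The catalases lay inside that range too, above 88.9% (ctl-2), 90.9% (ctl-1) and 93.0% (ctl-3) of those genes.

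The balance between the enzyme families differed between the libraries. This quantity was chosen after the values were seen; it does not depend on the scaling of the libraries. The superoxide dismutase genes had 13208 counts in the control and 11017 in EA, a ratio of 0.864 (0.842 to 0.886), and the catalases had more. Catalases held 50.7% of the counts of all 8 genes in the control (50.1% to 51.3%) and 60.2% in EA (59.6% to 60.8%). There were 1.03 catalase counts per superoxide dismutase count in the control and 1.51 in EA, 1.47-fold more (Wald interval 1.42 to 1.52). In summed FPKM, which takes transcript length into account, the quotient was 0.467 in the control and 0.691 in EA. With the length trend removed the factor was 1.35.

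Markers of some cell types differed by amounts like those of the catalases. Of the 3 intestine markers, the GATA factor gene elt-2 had a log2 ratio of 0.42, the yolk protein gene vit-6 0.25 and the esterase gene ges-1 -0.27; their summed level, set by vit-6, was 4911 CPM in the control and 5824 CPM in EA. The 3 germline markers summed to 577 and 690.1 CPM, a log2 ratio of 0.26. The one with the most counts, gld-1, had 0.32, and glp-1 and pgl-1 had 0.19 and 0.09. The 2 pharynx muscle markers summed to 251 and 201 CPM, a log2 ratio of -0.32. The part of cell composition in the values of the members was not tested.

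Genes linked to the same reactions were described by lists, counting genes with a mean of 1 CPM or more. Of all 14221 genes above that minimum, 12.9% passed the lower limit upward and 19.2% downward, 2.03% and 3.52% passed 2-fold, and the median log2 ratio was 0.00 (-0.0019). The first list holds the peroxiredoxins, thioredoxins, glutaredoxins and glutathione enzymes, which remove peroxide or repair its damage. Of its 24 measured genes, 1 was at least 25% higher and 7 were at least 20% lower, and 1 of the latter, the glutathione peroxidase gene gpx-6 at -1.03, was past 2-fold, though not with library totals, with FPKM or with the length trend removed. The median log2 ratio was -0.12. The lower ones were led, among genes at 5 CPM or more, by the thioredoxin gene trx-3, at 312 counts in the control, 177 in EA and a log2 ratio of -0.77 (-1.04 to -0.50). The thioredoxin gene trx-4 had -0.53, and the glutaredoxin genes glrx-10 and glrx-21 had -0.50 and -0.43. These are short transcripts. With the length trend removed, 2 genes of the list were at least 20% lower and the median was 0.03. In that setting trx-3 had -0.63 and gpx-6 -0.89, while trx-4, glrx-10 and glrx-21 had -0.07, -0.05 and -0.12.

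Genes linked to the formation of superoxide or hydrogen peroxide had a median log2 ratio of 0.00 (-0.0003). Of these 22 genes, 4 were at least 25% higher and 1 at least 20% lower. The 4 higher ones all encode acyl-CoA oxidases, peroxisomal enzymes of fatty acid oxidation that release hydrogen peroxide. The most abundant, acox-1.1, had 5173 counts in the control and 7495 in EA, a ratio of 1.501 (1.45 to 1.56). Next, acox-3 had 3584 counts in the control and 5161 in EA, at a log2 ratio of 0.58, and acox-1.3 and acox-1.2 had 0.65 and 0.40 at lower counts. The remaining 2 of the 6 acyl-CoA oxidase genes in the list did not pass the limit, acox-1.4 with a log2 ratio of 0.27 and acox-1.5 with -0.01 (-0.011). Some acyl-CoA oxidase genes are similar copies, so their single values are uncertain.

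Peroxins build peroxisomes or import proteins into them. Of the 11 peroxin genes, 11 had a log2 ratio above 0, with a median of 0.15. With upper quartile scaling and with the length trend removed, 10 of 11 did. The median over all genes with a mean of 1 CPM or more was 0.00 (-0.0019). For prx-2, prx-5, prx-13 and prx-19 the counting interval included 0. The size was small. One gene, prx-6, at 432 and 545 counts and a log2 ratio of 0.39 (0.20 to 0.57), was at least 25% higher; 2 genes were with library totals and with the length trend removed, and 3 with FPKM. With FPKM the median over all genes at 5 CPM or more was itself 0.07. The genes prx-1, prx-3 and prx-12 had 0.31, 0.27 and 0.20 by counts. The import receptor gene prx-5 had a log2 ratio of 0.00 (0.0013).

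Genes that supply or store the metals and haem of these enzymes had a median of -0.12, with 0 of 15 at least 25% higher and 6 at least 20% lower. The metallothionein genes mtl-1 and mtl-2, which bind metals, had log2 ratios of -1.38 and -1.07, both past 2-fold, and -0.87 and -0.52 with the length trend removed. The ferritin gene ftn-1, for iron storage, had 2012 counts in the control and 1065 in EA, at a log2 ratio of -0.87. The copper chaperone gene cuc-1 had -0.47, and 0.01 with the length trend removed.

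Of 26 measured genes of regulators, 1 was at least 25% higher, elt-2, and 0 were at least 20% lower. The gene hcf-1, whose product restrains DAF-16, had 7491 counts in the control and 8628 in EA, at a log2 ratio of 0.25 (0.21 to 0.30). The kinases nsy-1 and sek-1 of the p38 pathway had -0.31 and -0.30; both passed that limit with the length trend removed, and 1 gene did with upper quartile scaling. The median was -0.02, and it was above 0 with library totals, at 0.017, and with FPKM, at 0.041. Over all genes at 5 CPM or more the median was 0.044 and 0.074 in these settings. The transcript of daf-16 had 7425 counts in the control and 6982 in EA, at a log2 ratio of -0.04 (-0.09 to 0.01). The stress regulator gene skn-1 had 0.01, and hsf-1 and daf-2 had -0.16 and -0.15.

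Other genes known to depend on daf-16 were mostly lower, while sod-3 and the catalases had ratios above 1. For sod-3 the lower end of the interval, a ratio of 1.0002, lay at no difference. Of all genes at 1 CPM or more, 19.2% were at least 20% lower, 12.9% at least 25% higher and 3.52% past 2-fold downward. Of the 23 measured genes of the list, 15 were at least 20% lower and 0 at least 25% higher. Past 2-fold downward were 9 of them, and the median log2 ratio was -0.71. This list was put together with earlier results of these data known, and it includes 6 small heat shock genes of the hsp-16 family, some of which share reads. Its lowest values among genes at 5 CPM or more were those of the alcohol dehydrogenase gene sodh-1, hsp-16.48, the glyoxylate cycle gene icl-1 and hsp-16.49. The median of the list was between -0.72 and -0.63 under the other scalings and with FPKM. With the length trend removed it was -0.65, 15 genes were still at least 20% lower, and 6 were past 2-fold downward. The genes mtl-1 and ftn-1 of this list also stand in the list of metal and haem supply.

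**Figure D4:**
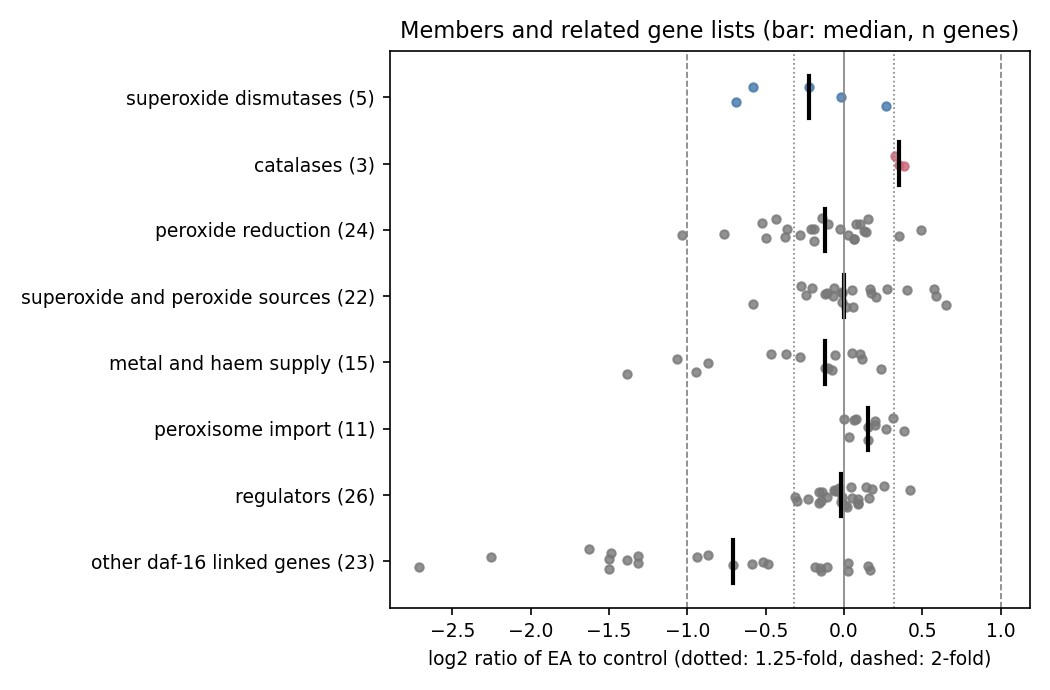
Log2 ratio of EA to control for the superoxide dismutase genes (blue), the catalase genes (red) and the genes of 6 related lists with a mean of 1 CPM or more (grey); each point is a gene, vertical bars are medians and the number of genes stands beside each name. All 5 superoxide dismutase genes are drawn, sod-5 included, although it lies under that minimum. The catalases lie close together near 0.35, the peroxins lie between 0.00 and 0.39, and the genes linked to daf-16 reach down to -2.71.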

How the data were processed

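The values are those of 1 control library and 1 EA library. The authors deposited raw counts per gene beside FPKM, their estimate of level per transcript length and depth, per the labels' protocols on build WBcel235. Their deposited log2 ratio is quoted only where named. With 1 library per group, their false discovery rates are not given here. The submitters' processing notes name edgeR, with no version. The sources used here name no aligner or counter and do not say whether strand was used.

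From the counts, effective library sizes were computed by TMM in edgeR 4.0.16 (R 4.3.3), with factors of 0.988 and 1.01. Log2 ratios had 0.5 added to each count. Intervals of ratios are exact conditional binomial (Clopper-Pearson), those of shares exact binomial and those of counts exact Poisson, from scipy 1.17.1. They cover counting error only, and with 1 library per group no p-value was computed. A gene was called past 2-fold, or past the lower limit of 25% higher or 20% lower, when its interval also excluded 1, at a mean of at least 5 CPM, or 1 CPM for lists. The steps for ratios, their intervals and calls were tested on simulated counts that held counting error only. Such counts cannot show how these steps behave under spread between libraries. Alternatives were library totals, DESeq2 1.42.0 size factors, upper quartile scaling, FPKM (0.1 added), an added count of 2, other minimums, and removal of a lowess trend on transcript length (statsmodels 0.14.6). Positions and lengths came from the Ensembl annotation of WBcel235, with lengths for 19973 rows.

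The members and lists were chosen with earlier results of these data known. Of 132 list entries 3 matched no row. Named are all members, daf-16, skn-1, hsf-1 and daf-2, and the 2 annotated genes on each side of the catalases. In each list, the 4 or fewer genes at 5 CPM or more whose log2 ratio was farthest from 0 are named too. Outside this rule, prx-2, prx-5, prx-13, prx-19, gpx-6, acox-1.4, acox-1.5, the overlapping genes and the marker genes were named. All of these but the overlapping genes and the marker genes were named after their values were seen. Sequence identity between members and promoter motifs were not analysed here.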

Additional observations from a re-analysis of the deposited data

How the results depend on the processing

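The directions of sod-2, sod-3, sod-4, sod-5 and the 3 catalases were the same under every scaling, with FPKM, with another added count and with the length trend removed; only sod-1, near 0, ranged from -0.03 to 0.11 on the log2 scale. The range was 0.33 to 0.42 for ctl-1, 0.30 to 0.39 for ctl-2, 0.36 to 0.45 for ctl-3, -0.59 to -0.52 for sod-4 and -0.23 to -0.13 for sod-2, whose value nearest to 0 was that with the length trend removed. Between 2 and 4 members were at least 25% higher and 1 was at least 20% lower, and 0 were past 2-fold in any setting. The numbers over all genes at 5 CPM or more moved as well. At least 25% higher were 964 with upper quartile scaling, 1043 with TMM and 1548 with FPKM. At least 20% lower were 1741, 1659 and 1313 in these settings. Over all genes at 5 CPM or more, 161 were at least 2-fold lower, and 102 with the length trend removed; at a minimum of 20 CPM 1 gene was higher and 52 lower, and with no minimum 944 and 1541. Log2 ratios of sums moved beyond their counting interval in these cases. With FPKM they were -0.16 for copper/zinc dismutases, -0.15 for all superoxide dismutases, 0.41 for catalases and 0.055 for all 8 genes. With the length trend removed they were -0.12 for copper/zinc, -0.10 (-0.099) for manganese and -0.11 for all superoxide dismutases, and 0.12 for all 8 genes. With library totals they were 0.38 for catalases and 0.13 for all 8 genes. The factor of catalase to superoxide dismutase counts was 1.35 with the length trend removed. The median of the peroxide reduction list turned to 0.030 with the length trend removed, where its genes at least 20% lower went from 7 to 2, and that of the regulators was 0.041 with FPKM. The shift with library totals is the same for every gene by construction. Over all genes at 5 CPM or more the median log2 ratio was 0.008 with TMM, 0.044 with library totals and 0.074 with FPKM. The cause of the other shifts was not tested, beyond the fact that the length trend is negative at the lengths of the dismutase transcripts. Per length, sod-1 held 46.8% and 52.1% of superoxide dismutase FPKM, against 41.3% and 47.1% of counts.

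No paired analysis was possible because each group has 1 library, and leaving out a library gives no value for the same reason. Depth limits sod-5, with 22 and 13 counts, and, less, sod-3.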

Other observations

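The deposited pathway annotation places all 8 genes in the peroxisome pathway. Among the other 88 genes annotated there, a list taken up after the members' values were seen, 82 had a mean of at least 1 CPM. Of these, 57 had a log2 ratio above 0 and 25 below. Of the 82, 16 were at least 25% higher and 11 at least 20% lower, against 12.9% and 19.2% of all genes at that minimum. The median log2 ratio was 0.18, against 0.00 (-0.0019) over all those genes. The median was 0.17 to 0.25 under the other scalings, with FPKM and with the length trend removed. The 0.25 was that with FPKM, where the median over all genes at 5 CPM or more was 0.07. The list is not independent of those above: 19 of the 82 genes, the peroxins and acyl-CoA oxidase genes among them, also stand in the list of peroxide and superoxide sources or that of peroxins. The median of the 62 genes in none of the lists above was 0.18. The highest value among genes at 5 CPM or more was that of B0272.4, with 2128 counts in the control and 3847 in EA, 1.87-fold higher (1.78 to 1.98). The acyl-CoA oxidase gene acox-1.6 had 1962 and 3027 counts, a log2 ratio of 0.68. The D-aspartate oxidase gene ddo-2, whose product also releases hydrogen peroxide, had 1103 and 654 counts, a log2 ratio of -0.70. The acyl-CoA synthetase gene acs-2, annotated to the same pathway, had the lowest value, -2.45.

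The annotation also places sod-2, sod-3 and the 3 catalases in the worm longevity pathway. The other genes annotated there with a mean of at least 1 CPM had 42 log2 ratios above 0 and 66 below. Of the 108, 33 were at least 20% lower and 7 at least 25% higher, against 19.2% and 12.9% of all genes at that minimum. The median log2 ratio of this list was -0.07, and -0.01 with FPKM. With FPKM the median over all genes at 5 CPM or more was 0.07. The lowest ones at 5 CPM or more were mtl-1 and copies of the hsp-16 family, so this list shares genes with the list of genes linked to daf-16.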
